A study of Mus musculus with 12 samples.

Results

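The Hox genes of 4 clusters were examined in mouse inner medullary collecting duct (mIMCD3) cells, a kidney epithelial line from mice that carried the early region of simian virus SV40. The genes were taken by their Ensembl identifiers from a table of 47642 genes, in which 38 of 39 protein-coding Hox genes are reported here and 1 was not analysed. They make up 10 genes of HoxA, 10 of HoxB, 9 of HoxC and 9 of HoxD, in paralog groups numbered 1 to 13. RNA of 12 libraries was sequenced, 4 each from wild-type cells, from Pkd1-/- cells with a CRISPR deletion of Pkd1, and from Pkd2-/- cells in which a TALEN pair had deleted part of Pkd2. Pkd1 and Pkd2 encode the polycystins, whose mutations cause autosomal dominant polycystic kidney disease. Each mutant was 1 clone, and the 4 libraries of a genotype came from separate dishes of that line, chosen by RNA purity from 6 dishes and harvested 4 days after confluency. P-values therefore measure the spread between dishes and do not cover the spread between clones.

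Hox genes encode homeodomain transcription factors that give cells their position along the body axis. In mammals they lie in clusters named A to D, and genes with the same group number are paralogs that descend from 1 ancestral gene. Within a cluster, genes of low group number are expressed towards the head, and those of high number towards the tail. Polycomb complexes keep silent Hox genes closed, Trithorax complexes keep active ones open, retinoic acid induces the genes of low number, and the Pbx and Meis proteins bind DNA together with Hox proteins. In the kidney, the genes of group 11 are needed for the metanephros to form, and cultured cells often keep the Hox pattern of the tissue they came from.

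Values are normalized counts, which are read counts divided by a size factor of each library and rounded to whole numbers. By an estimate from the steps between low values, between 23188147 and 30338916 reads per library were counted on genes. In such bulk RNA, fewer cells of a type and less RNA per cell cannot be told apart. A value of 0 allows up to 3 counts per library, and such limits cover counting error only. The deleted gene Pkd1 fell from a mean of 782.2 ± 112.4 to 41.8 ± 8.81 normalized counts in the Pkd1-/- clone (SD, n = 4). For Pkd2 the means were 3971.2 ± 451.2 before and 3986.2 ± 123.7 after its deletion (SD, n = 4), which checks nothing, because the count of the whole gene includes exons outside the deletion. Of 18 collecting duct markers, 10 had a mean of at least 10 in every genotype (among them Pax2, Pax8, Gata3, Scnn1a and Cdh1), while Aqp2, Aqp4 and Tfap2b were at 0 in every library. Aqp3, Avpr2, Scnn1b and Slc14a2 held at most 7 counts in any library. The list summed to 69291 to 77224 counts in wild-type, 69178 to 71014 in Pkd1-/- and 77991 to 81091 in Pkd2-/- libraries. Most of it came from Epcam, Krt18, Cdh1 and Krt8 (wild-type means of 22381.2, 18821.2, 13696.2 and 8825.8), so the sum says little about the other markers. Single members were called. Scnn1g, a subunit of the epithelial sodium channel, was lower in both mutants (means of 927.8, 302.8 and 254.8 in wild-type, Pkd1-/- and Pkd2-/- cells, adjusted p = 1.37e-10 and 7.94e-12). Gata3 was lower in Pkd1-/- cells (226.8 to 48.5, adjusted p = 6.34e-10). Elf5 was called higher in Pkd1-/- cells, at 5.75 against 0.25 (adjusted p = 0.007). The 5 intercalated cell markers summed to 29 to 82 counts in wild-type, 437 to 547 in Pkd1-/- and 3 to 5 in Pkd2-/- libraries, with Foxi1 and Atp6v0d2 at 0 and nearly all counts from Atp6v1b1 (means of 57.0, 513.0 and 1.0). Those of the proximal tubule, also 5, summed to 480 to 557, 33 to 71 and 744 to 1222 counts, nearly all from Lrp2, with Slc34a1 and Slc22a6 at 0. The 4 immune markers summed to 893 to 1000, 428 to 652 and 732 to 827 counts, mostly from Csf1r (means of 880.5, 479.2 and 734.0). Fibroblast markers summed to 29 to 55, 89 to 102 and 15 to 97 counts, with Col3a1 called higher in Pkd1-/- cells (4.75 to 66.2, adjusted p = 0.00359). The remaining lists (loop of Henle and distal tubule, endothelial) summed to between 0 and 9. In Pkd2-/- cells, Pdgfrb and Umod were called lower, from means of 2.5 and 3.0 to 0, with overlapping libraries (adjusted p = 0.0269 and 0.0338). The part of these differences in the Hox results was not tested.

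Sequences before the annotated starts are shown for the paralog pairs Hoxd8 and Hoxb8, and Hoxd4 and Hoxb4, because the HoxD member of each pair was called lower in Pkd2-/- cells and its HoxB paralog was not. The sequences are from RefSeq (GRCm38.p6), which held such a window for 22 of the 38 genes (24 windows). Each is 250 bases, 5′ to 3′, ending just before the RefSeq start. For Hoxd4 that start lies inside the span of the gene given below (74711929 to 74729160), so its window is not before the 5′ end of that span. Capitals mark matches, on either strand, to AGGTCA (bound by nuclear receptors such as the retinoic acid receptor), TTTATNG (bound by posterior Hox and Cdx proteins), TAATTA (the homeodomain core) and TGATTNAT (bound by Pbx with Hox).
Hoxd8, chr2:74704365-74704614, plus strand: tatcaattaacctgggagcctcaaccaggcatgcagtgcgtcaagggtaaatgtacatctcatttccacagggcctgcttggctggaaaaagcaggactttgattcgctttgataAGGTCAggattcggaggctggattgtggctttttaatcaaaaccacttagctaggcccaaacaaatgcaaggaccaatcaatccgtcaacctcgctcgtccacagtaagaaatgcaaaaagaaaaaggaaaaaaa
Hoxb8, chr11:96281655-96281904, plus strand: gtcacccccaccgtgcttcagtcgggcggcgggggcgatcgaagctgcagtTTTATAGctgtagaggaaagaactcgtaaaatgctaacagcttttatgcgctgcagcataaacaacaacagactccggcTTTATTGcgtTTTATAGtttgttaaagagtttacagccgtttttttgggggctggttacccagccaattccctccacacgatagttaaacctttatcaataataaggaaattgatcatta
Hoxd4, chr2:74721728-74721977, plus strand: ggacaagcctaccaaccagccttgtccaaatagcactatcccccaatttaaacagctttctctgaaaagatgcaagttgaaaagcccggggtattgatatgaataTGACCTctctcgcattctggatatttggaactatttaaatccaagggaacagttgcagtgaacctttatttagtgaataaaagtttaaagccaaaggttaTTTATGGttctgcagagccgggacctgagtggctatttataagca
Hoxb4, chr11:96318017-96318266, plus strand: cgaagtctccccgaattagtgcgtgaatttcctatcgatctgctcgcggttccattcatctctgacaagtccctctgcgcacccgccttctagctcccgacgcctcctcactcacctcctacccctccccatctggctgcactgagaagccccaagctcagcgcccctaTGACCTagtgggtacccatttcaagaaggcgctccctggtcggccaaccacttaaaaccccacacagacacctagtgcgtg
Hoxd8, Hoxd4 and Hoxb4 have 1 match each to AGGTCA, which 14% of 32851 windows of all genes hold. Hoxb8 has 3 matches to TTTATNG and Hoxd4 has 1, and 9.81% of all windows hold it. TAATTA and TGATTNAT, held by 4.84% and 2.82% of all windows, are not among these letters. Over the 24 Hox windows, the median number of CpG sites was 12.5, against 6 over all windows.

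In wild-type cells, the Hox level was carried by HoxB and HoxA. To compare genes, values were divided by the length of the annotated exons and are given as normalized counts per kb. Summed over its genes, HoxB stood at 7551.7 ± 121.6 per kb (SD, n = 4), HoxA at 2709.3 ± 188.3, HoxD at 173.5 ± 6.71 and HoxC at 106.6 ± 4.82. HoxB thus held 71.7% ± 1.09 of the summed level, HoxA 25.7% ± 1.17, HoxD 1.65% ± 0.1 and HoxC 1.01% ± 0.0322. By this measure the order of the clusters, HoxB, HoxA, HoxD and HoxC, was the same in Pkd1-/- cells, where they stood at 7296.6 ± 145.6, 2901.5 ± 119.8, 206.6 ± 7.33 and 85.7 ± 9.4 per kb. In Pkd2-/- cells HoxC, at 30.7 ± 7.27, stood above HoxD, at 3.48 ± 0.78, below HoxB at 6098.2 ± 90.3 and HoxA at 2419.6 ± 45.8. As a share of the wild-type level, the Pkd2-/- sum was 80.8% for HoxB, 89.3% for HoxA, 28.8% for HoxC and 2.01% for HoxD.

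**Figure D1:**
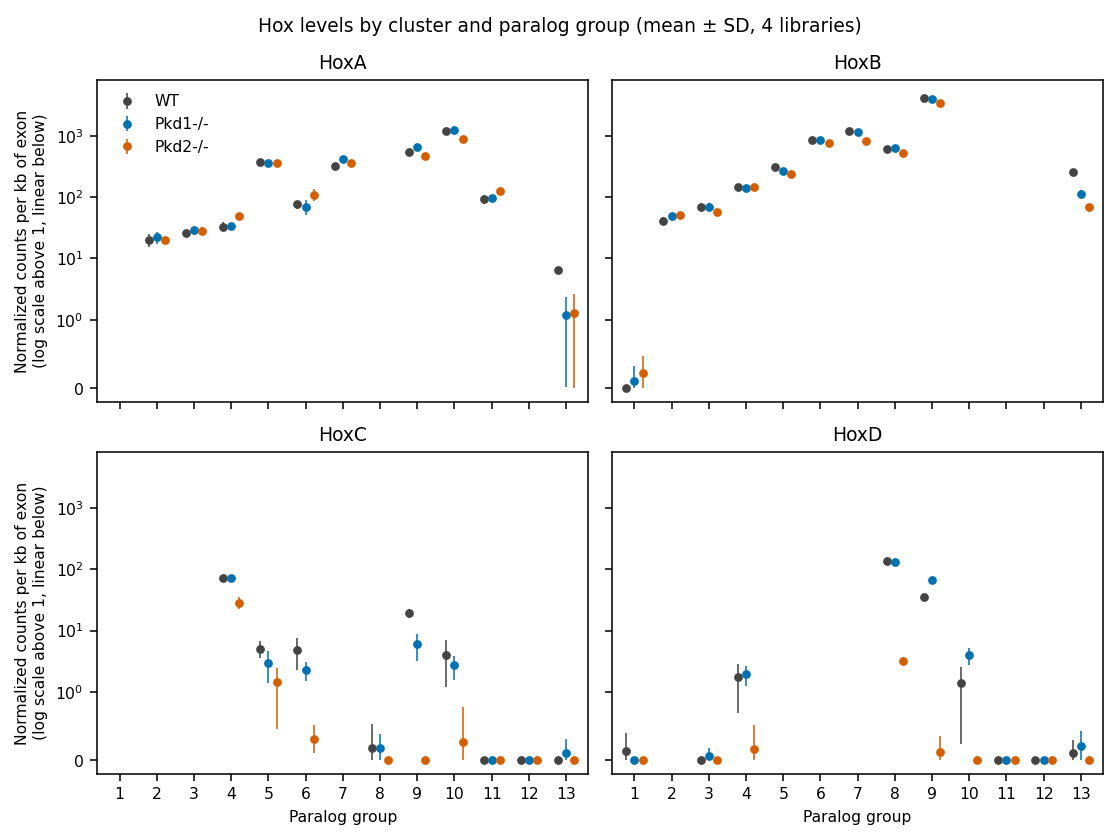
Level of each Hox gene in normalized counts per kb of exon (vertical axis, logarithmic above 1 and linear below) against its paralog group (horizontal axis), with 1 panel for each cluster. Points are means of 4 libraries and bars are SDs, cut off at 0. HoxB peaks at group 9 and HoxA at group 10, and the points of Pkd2-/- cells lie below the others at the 5 tested genes of HoxC and the 4 of HoxD. Untested genes lie at or near 0 in all genotypes.

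The genes with the highest level per kb were Hoxb9 in HoxB, Hoxa10 in HoxA, Hoxc4 in HoxC and Hoxd8 in HoxD, in all 3 genotypes. Hoxb9, whose paralog group acts in the thorax and the mammary gland, ranked 243 of 22169 genes above 0 in wild-type cells by level per kb. Its level of 4081.9 ± 64.6 per kb (SD, n = 4) made up 87.1% of the summed level of group 9. Within wild-type HoxB the order was Hoxb9, Hoxb7, Hoxb6, Hoxb8, Hoxb5, Hoxb13, Hoxb4, Hoxb3, Hoxb2 and Hoxb1, and the ranges of the libraries overlapped between none of these neighbours. Within HoxA the order was Hoxa10, Hoxa9, Hoxa5, Hoxa7, Hoxa11, Hoxa6, Hoxa4, Hoxa3, Hoxa2 and Hoxa13. There, Hoxa5 and Hoxa7, Hoxa11 and Hoxa6, Hoxa4 and Hoxa3, and Hoxa3 and Hoxa2 overlapped. The orders depend on the length used, which for Hoxa3 was 6014 exon bases, against 2591 for its longest transcript. Only the top gene of each cluster was compared under other lengths. In HoxC, Hoxc4 at 73.0 ± 8.03 per kb stood above Hoxc9 at 19.3 ± 3.24 without overlap. Below Hoxc9, also without overlap, came Hoxc5, Hoxc6 and Hoxc10, at 5.1, 4.88 and 4.06. Of these, Hoxc5 overlapped with Hoxc6, and Hoxc6 with Hoxc10. In HoxD, Hoxd8 at 134.7 ± 6.98 stood above Hoxd9 at 35.5 ± 4.61, and both stood above Hoxd4 at 1.78 ± 1.09 and Hoxd10 at 1.38 ± 1.15, which overlapped.

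By paralog group, HoxB genes had the highest level in groups 2, 3, 4, 6, 7, 8, 9 and 13 and HoxA genes in groups 5, 10 and 11, in each genotype. Groups 1 and 12 had next to none. The order within group 4 differed between genotypes: Hoxc4 stood above Hoxa4 in wild-type (73.0 ± 8.03 and 33.1 ± 5.5 per kb) and in Pkd1-/- cells (71.4 ± 7.58 and 34.2 ± 2.64), and below it in Pkd2-/- cells (28.6 ± 6.37 and 49.2 ± 3.46; SD, n = 4). In group 9, Hoxd9 stood above Hoxc9 in wild-type (35.5 ± 4.61 and 19.3 ± 3.24 per kb) and in Pkd1-/- cells (67.1 ± 8.13 and 6.07 ± 2.82). In Pkd2-/- cells these 2 genes had 1 count in all. Group 8 was Hoxb8 for 81.9% and Hoxd8 for nearly all the rest in wild-type cells, while in Pkd2-/- cells Hoxb8 made up 99.4%.

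Of the 38 genes, 28 had a mean of at least 1 normalized count over the 12 libraries and were tested. The other 10 were at most at 2 in any library: Hoxc11, Hoxc12, Hoxd11 and Hoxd12 were at 0 in all of them, and Hoxb1, Hoxc8, Hoxc13, Hoxd1, Hoxd3 and Hoxd13 held 1 count, or for Hoxc8 up to 2, in 1 to 3 libraries each. So all 10 HoxA genes and 9 HoxB genes were tested, but 5 of HoxC and 4 of HoxD. The mean was at least 10 in 1 or more genotypes for 25 genes. Differences were tested with limma over 18552 genes, and a gene was called at a Benjamini-Hochberg adjusted p under 0.05 with a log2 difference of at least 1 in either direction. In Pkd1-/- against wild-type cells, 4 of the 28 genes were called (14.3%, against 6.24% of all genes tested). Of these, 3 were lower (10.7%, against 3.28%), namely Hoxa13, Hoxb13 and Hoxc9, and 1 was higher (3.57%, against 2.96%), namely Hoxd10. In Pkd2-/- against wild-type cells, 11 genes were called (39.3%, against 9.62%), and all 11 were lower (39.3%, against 6.38%), where 3.24% of all genes were called higher. They were Hoxa13, Hoxb13, all 5 tested genes of HoxC and all 4 tested genes of HoxD. In Pkd2-/- cells, 2 genes of HoxC and 1 of HoxD had a mean of at least 1. The other tested genes of these clusters passed the filter only through wild-type and Pkd1-/- libraries. Their lower direction in Pkd2-/- cells, here and between the mutants, is therefore not independent of the filter. With a pseudocount of 5 in place of 1, 9 Hox genes were called, without Hoxd4 and Hoxd10, beside 6.87% of all genes. With limma's unadjusted p under 0.05, 5 Hox genes were higher and 19 lower. The share of all genes at that unadjusted threshold was not computed in any comparison, so such counts show no excess by themselves. Between the mutants, 8 genes were called (28.6%, against 11.8%), and all 8 were lower in Pkd2-/- cells (28.6%, against 7.23%), where 4.53% of all genes were called higher; at an unadjusted p under 0.05, limma gave 3 higher and 19 lower. They were Hoxc4, Hoxc6, Hoxc9, Hoxc10, Hoxd4, Hoxd8, Hoxd9 and Hoxd10. The comparisons share libraries, so their calls are not independent of each other.

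By the adjusted p alone, 8 genes differed in Pkd1-/- cells (28.6%, against 27.1% of all genes), with 4 higher (14.3%, against 13.6%) and 4 lower (14.3%, against 13.5%). These shares are near those of all genes. In Pkd2-/- cells 22 genes differed from wild-type (78.6%, against 42.3%), with 3 higher (10.7%, against 20.0%) and 19 lower (67.9%, against 22.3%). Between the mutants, 21 differed (75.0%, against 46.3%), with 3 higher (10.7%, against 21.9%) and 18 lower (64.3%, against 24.3%) in Pkd2-/- cells. The median log2 difference of the 28 genes was −0.02 in Pkd1-/- cells, beside 0.01 over all genes tested. It was −0.35 in Pkd2-/- cells, beside −0.01, and −0.30 between the mutants, beside −0.01. These medians were the same with genes at 0 placed at their bound. That step could not change them, because it moves only values that stay below the median.

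**Figure D2:**
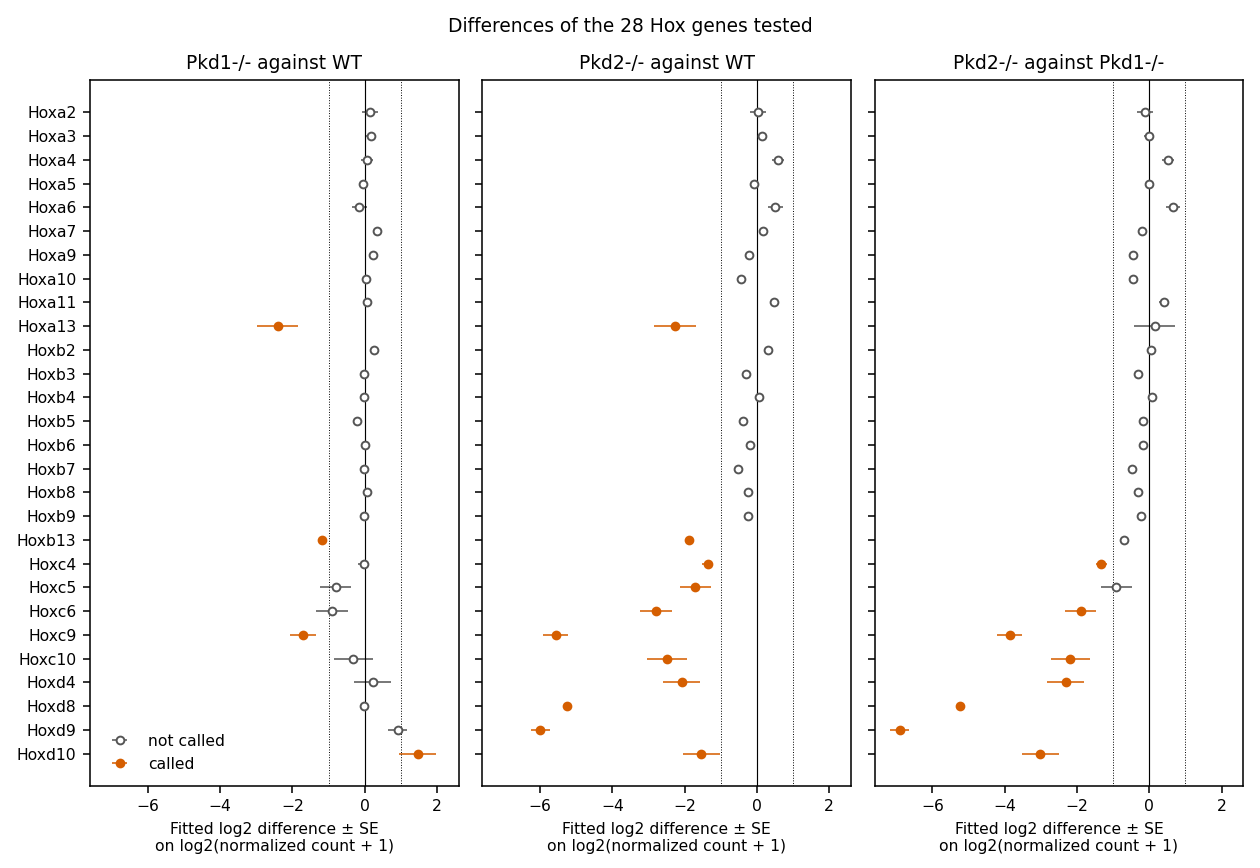
Fitted log2 difference with its SE (horizontal axis, on log2 of the normalized count plus 1) for each of the 28 Hox genes tested (vertical axis), in 3 comparisons. Filled points were called and open points were not, and dotted lines mark a log2 difference of 1 in either direction. In the comparison of Pkd2-/- with wild-type cells, all filled points lie to the left, and they include every tested gene of HoxC and HoxD.

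HoxD, on chromosome 2 from 74668310 to 74765142, was the cluster with the lowest level in Pkd2-/- cells. Hoxd8 (chromosome 2, 74704615 to 74707933), a gene of the middle of the body axis, had 382, 341, 376 and 379 normalized counts in wild-type, 336, 401, 368 and 358 in Pkd1-/-, and 9, 7, 10 and 9 in Pkd2-/- libraries. Wild-type and Pkd1-/- libraries overlapped, and all Pkd2-/- libraries lay far below. Its mean in Pkd2-/- cells, 8.75 ± 1.26 (SD, n = 4), was 2.37% of the wild-type mean, a log2 difference of −5.26 (SE 0.12, adjusted p = 2.49e-16, exact permutation p = 0.0286, the smallest that 4 against 4 libraries can give). Against Pkd1-/- cells it was 41.8-fold lower (adjusted p = 1.36e-16). In Pkd1-/- cells the log2 difference from wild-type was −0.02 (SE 0.12, adjusted p = 0.949).

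Hoxd9 (chromosome 2, 74697727 to 74700208) had 63, 83, 84 and 73 normalized counts in wild-type, 167, 128, 145 and 133 in Pkd1-/-, and 1, 0, 0 and 0 in Pkd2-/- libraries. The 3 genotypes did not overlap, with Pkd1-/- above and Pkd2-/- below wild-type. Its summed count fell from 303 in wild-type to 1 in Pkd2-/- libraries, a ratio of 303 with an exact 95% counting interval of 54.0 to 12006.9 (adjusted p = 1e-12). In Pkd1-/- cells it was 1.89-fold higher, a log2 difference of 0.91 (SE 0.26, adjusted p = 0.0117, exact permutation p = 0.0286), which is past the adjusted p but below the fold required for a call. The ratio of the mutants' summed counts was 573, with a counting interval of 102 to 22671.3 (adjusted p = 8.13e-14).

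Hoxd10 and Hoxd4 were near the floor in every genotype. Hoxd10 (chromosome 2, 74691924 to 74695105), which acts with Hoxc10 in motor neurons of the hindlimb, had 3, 2, 5 and 0 counts in wild-type, 8, 10, 6 and 5 in Pkd1-/-, and 0 in every Pkd2-/- library. Its Pkd1-/- mean of 7.25 was 2.9-fold the wild-type mean of 2.5 (log2 difference 1.46, SE 0.52, adjusted p = 0.0424), but the libraries met at 5 and the exact permutation p was 0.0571. That call was lost without wild-type replicate 2 or 4 (adjusted p = 0.0688 and 0.153) and without Pkd1-/- replicate 1, 2 or 3 (0.0871, 0.118 and 0.0653). Against Pkd1-/- cells, Hoxd10 was at least 2.42-fold lower in Pkd2-/- cells, computed against a floor of 3 counts per library (adjusted p = 8.19e-05). Its call against wild-type (adjusted p = 0.0214, exact permutation p = 0.143) was lost without wild-type replicate 1 or 3 (0.06 and 0.0875) and with a pseudocount of 5 (0.056), and no fold is given because both means are below the floor.

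Hoxd4 (chromosome 2, 74711929 to 74729160) had 2, 3, 8 and 8 counts in wild-type, 4, 7, 8 and 4 in Pkd1-/-, and 2, 0, 0 and 0 in Pkd2-/- libraries. Only the Pkd1-/- libraries lay wholly above the Pkd2-/- libraries, since wild-type and Pkd2-/- libraries met at 2. The summed count was 21 in wild-type and 2 in Pkd2-/- libraries, a ratio of 10.5 with a counting interval of 2.57 to 92.4 (adjusted p = 0.00246, exact permutation p = 0.0571). With a pseudocount of 5 the log2 difference was −0.86, below the fold required for a call. Of its exon bases, 52.3% also belong to other annotated genes, so part of its reads may have been counted elsewhere. The remaining genes of the cluster, Hoxd1, Hoxd3, Hoxd11, Hoxd12 and Hoxd13, held at most 1 count in any library of any genotype.

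Inside HoxD, 10 other genes are annotated, of which 1 was tested. This gene, Hoxd3os1, is transcribed from the opposite strand and had means of 25.2 ± 4.92 (wild-type), 26.5 ± 0.577 (Pkd1-/-) and 0.5 ± 0.577 (Pkd2-/-) normalized counts (SD, n = 4; adjusted p = 4.96e-09 for Pkd2-/- against wild-type). Its libraries held 19 to 31, 26 to 27 and 0 to 1 counts. Whether reads were counted by strand is not stated in the sources used here. The nearest tested coding genes on either side were not lower in Pkd2-/- cells. Evx2, a homeobox gene 8.75 kb from the Hoxd13 end, was at 0 in all libraries, so it was not tested and could not show a decrease. Lnpk, 88.9 kb away on that side, had 743.8 ± 54.2 normalized counts in wild-type and 917.0 ± 48.9 in Pkd2-/- cells, a log2 difference of 0.30 (SE 0.07, adjusted p = 0.00103). Mtx2, a mitochondrial gene 60.7 kb beyond the Hoxd1 end, had 1669.2 ± 70.1 and 1872.8 ± 93.5, a log2 difference of 0.17 (SE 0.06, adjusted p = 0.0211). Among 7 tested coding genes within 1 Mb of HoxD, 1 was called lower in Pkd2-/- cells, Chn1 at 893.0 kb, and 0 were called higher, although all 7 passed the adjusted p. The share called was 14.3%, beside 9.62% of all genes, of which 42.3% passed the adjusted p.

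**Figure D3:**
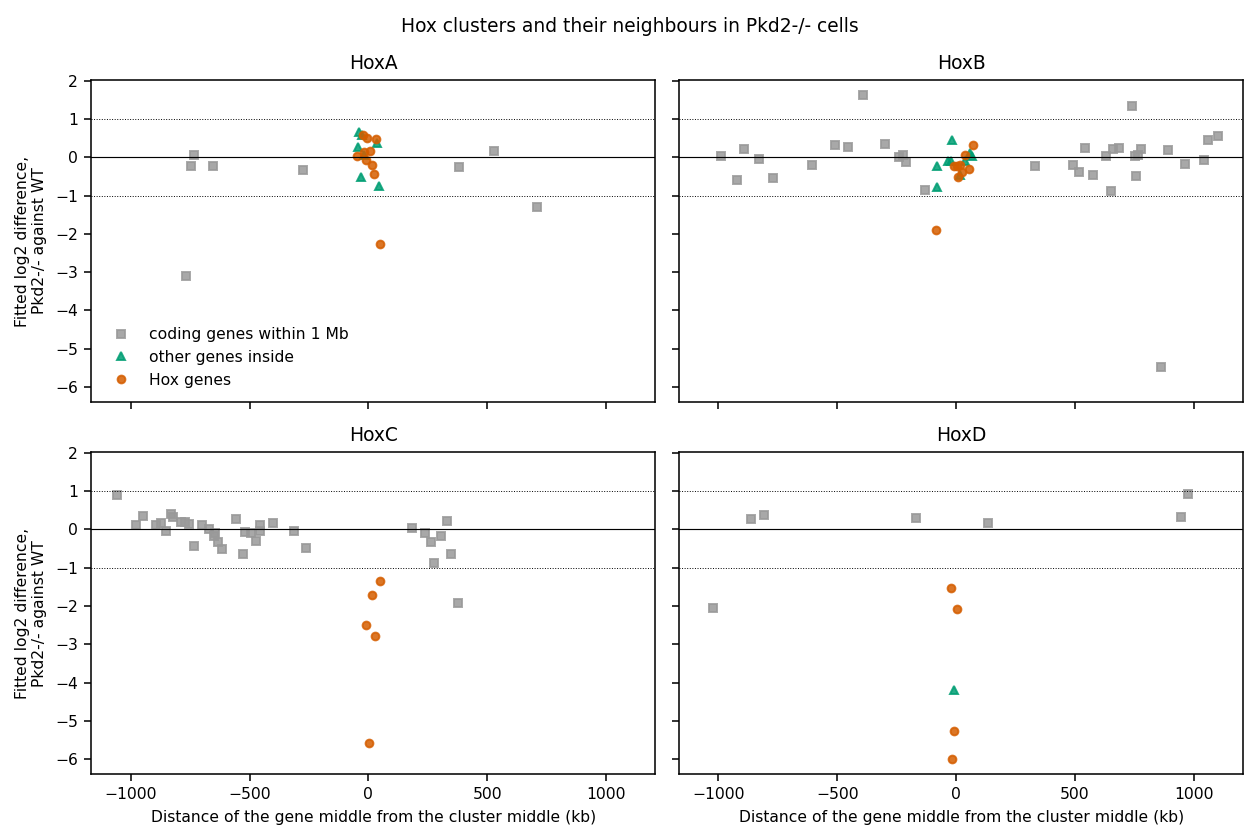
Fitted log2 difference between Pkd2-/- and wild-type cells (vertical axis) against the distance in kb of each gene's middle from the middle of its Hox cluster (horizontal axis), for 1 cluster per panel. Circles are Hox genes, triangles other genes inside the clusters and squares coding genes within 1 Mb. In the HoxC and HoxD panels all circles lie below −1, while most squares lie between −1 and 1.

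HoxC, on chromosome 15 from 102921103 to 103036852, was lower in Pkd2-/- cells at each of its 5 tested genes. Of these, 2 had a mean of at least 1 in Pkd2-/- cells, and the others passed the filter through the other genotypes. Hoxc4 (chromosome 15, 103018934 to 103036852), the most expressed of them, had 161, 209, 197 and 183 normalized counts in wild-type, 179, 187, 207 and 160 in Pkd1-/-, and 91, 53, 69 and 81 in Pkd2-/- libraries. Wild-type and Pkd1-/- libraries overlapped, and every Pkd2-/- library lay below both. Its mean in Pkd2-/- cells was 39.2% of wild-type, a log2 difference of −1.36 (SE 0.15, adjusted p = 5.32e-07, exact permutation p = 0.0286), and 40.1% of Pkd1-/- (adjusted p = 5.52e-07). In Pkd1-/- cells the log2 difference was −0.03 (SE 0.15, adjusted p = 0.912).

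Hoxc9 (chromosome 15, 102976439 to 102985099), which sets the identity of thoracic motor neurons, had 55, 52, 38 and 43 normalized counts in wild-type, 21, 11, 20 and 7 in Pkd1-/-, and 0 in every Pkd2-/- library. The 3 genotypes did not overlap. In Pkd1-/- cells its mean of 14.8 ± 6.85 was 31.4% of the wild-type mean of 47.0 ± 7.87 (SD, n = 4), a log2 difference of −1.71 (SE 0.35, adjusted p = 0.00104, exact permutation p = 0.0286). In Pkd2-/- cells it was at least 15.7-fold lower than in wild-type cells (adjusted p = 2.53e-10) and at least 4.92-fold lower than in Pkd1-/- cells (adjusted p = 3.31e-08), computed against the floor. The study selected Hoxc9 and Hoxb13 on these libraries, so that their directions are not independent evidence.

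Hoxc5, Hoxc6 and Hoxc10 were at 21 counts or fewer in all libraries. Hoxc5, a gene of the neck and upper trunk, had 21, 18, 10 and 14 counts in wild-type, 5, 14, 13 and 5 in Pkd1-/-, and 9, 2, 3 and 4 in Pkd2-/- libraries. Only wild-type and Pkd2-/- libraries were apart, with a mean ratio of 3.5 (log2 difference −1.71, SE 0.43, adjusted p = 0.00315). Hoxc6, which acts in motor neurons of the forelimb, had 13, 6, 20 and 8 counts in wild-type, 7, 5, 3 and 7 in Pkd1-/-, and 0, 1, 1 and 1 in Pkd2-/- libraries. Its Pkd2-/- libraries lay below all others, and the ratio of summed counts was 15.7 to wild-type with a counting interval of 5.04 to 78.7 (adjusted p = 3.7e-05), and 7.33 to Pkd1-/- with an interval of 2.2 to 38.3 (adjusted p = 0.0014). Hoxc10 had 2 to 15 counts in wild-type, 3 to 8 in Pkd1-/-, and 0 to 2 in Pkd2-/- libraries. Wild-type and Pkd2-/- libraries met at 2, and the ratio of their summed counts was 15.5, with an interval of 3.94 to 133.7 (adjusted p = 0.000859, exact permutation p = 0.0571). In Pkd1-/- cells none of these 3 passed the adjusted p, at 0.194 for Hoxc5, 0.146 for Hoxc6 and 0.732 for Hoxc10.

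The 7 other genes inside HoxC, among them the long noncoding RNA gene Hotair, were at 0 in all libraries. Of 36 tested coding genes within 1 Mb of HoxC, 0 were called higher and 1 lower in Pkd2-/- cells (2.78%, beside 9.62% of all genes). The called gene was Itga5 at 307.4 kb, and the median log2 difference of the 36 genes was −0.04. The nearest tested genes were Smug1, 116.4 kb from the Hoxc4 end, at a log2 difference of 0.03 (adjusted p = 0.729), and Calcoco1, 198.9 kb from the Hoxc13 end, at −0.49 (adjusted p = 2.39e-07). Calcoco1 had 5477.5 ± 234.6 normalized counts in wild-type and 3905.2 ± 267.7 in Pkd2-/- cells, without overlap. It was also lower in Pkd1-/- cells (−0.28, adjusted p = 0.000272). All of these differences were below the fold required for a call.

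**Figure D4:**
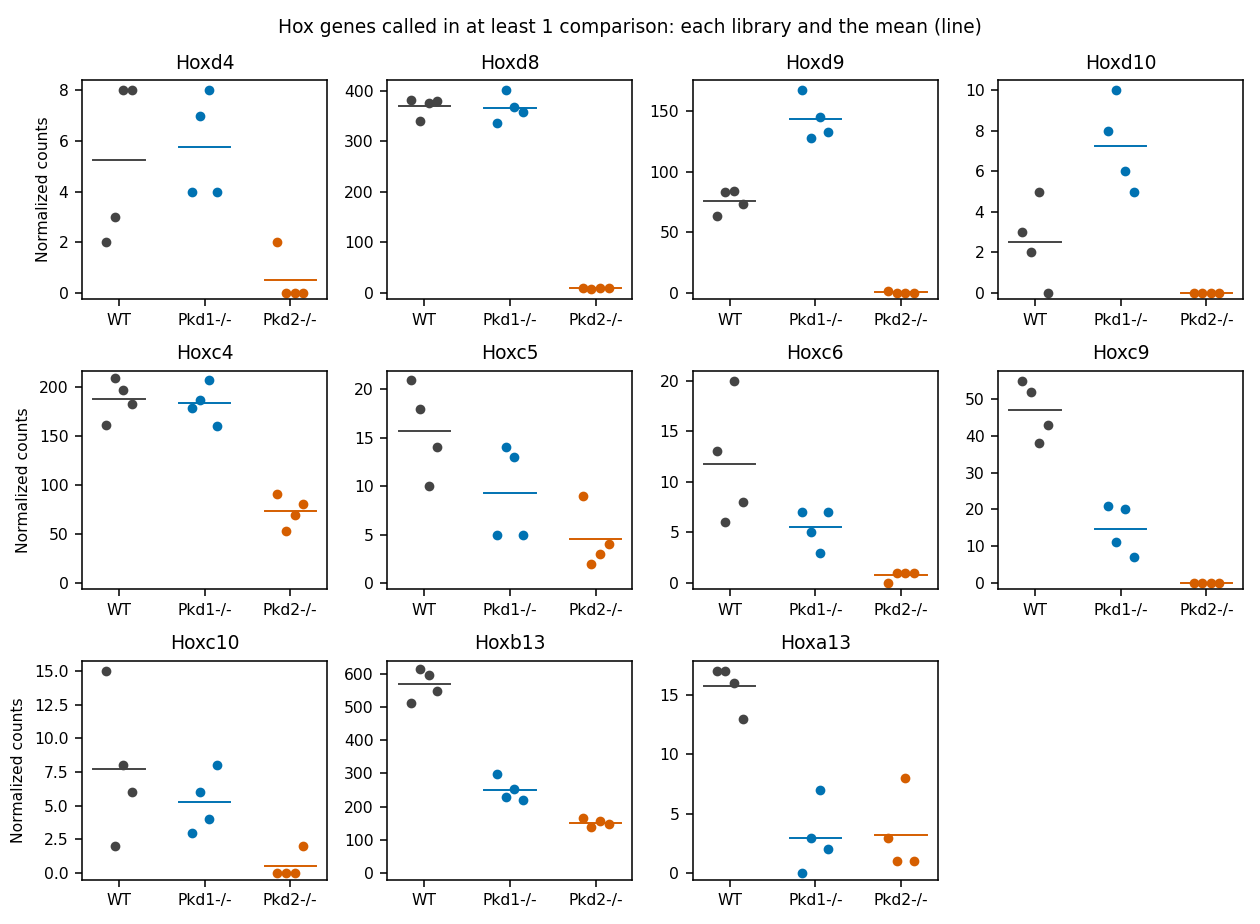
Normalized counts (vertical axis, from 0, a scale of its own in each panel) of the 11 Hox genes called in at least 1 comparison, by genotype (horizontal axis). Each point is 1 library and each line is the mean of 4. Hoxd8, Hoxd9 and Hoxc9 are at or near 0 in the Pkd2-/- libraries only, whereas Hoxb13 and Hoxa13 lie below wild-type in both mutants.

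The genes of group 13 that were expressed, Hoxb13 and Hoxa13, were lower in both mutants. Hoxb13 (chromosome 11, 96194316 to 96197447), a gene of the tail end and the prostate, had 513, 615, 595 and 548 normalized counts in wild-type, 299, 228, 252 and 220 in Pkd1-/-, and 165, 138, 157 and 148 in Pkd2-/- libraries. The 3 genotypes did not overlap. The log2 difference from wild-type was −1.19 in Pkd1-/- cells (SE 0.1, adjusted p = 4.19e-08) and −1.89 in Pkd2-/- cells (SE 0.1, adjusted p = 2.53e-11), and it was −0.71 between the mutants (adjusted p = 1.2e-05), below the fold required for a call. Hoxa13 (chromosome 6, 52257694 to 52260880), which patterns the digits and the genital tract, had 17, 17, 16 and 13 counts in wild-type, 0, 3, 7 and 2 in Pkd1-/-, and 3, 1, 8 and 1 in Pkd2-/- libraries. Both mutants lay below all wild-type libraries and overlapped with each other. Its mean was 5.25-fold lower in Pkd1-/- cells (log2 difference −2.41, SE 0.57, adjusted p = 0.00335) and 4.85-fold lower in Pkd2-/- cells (−2.27, SE 0.57, adjusted p = 0.00323), and the mutants differed by 0.15 (SE 0.57, adjusted p = 0.864).

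In HoxB, on chromosome 11 from 96194316 to 96368256, no gene other than Hoxb13 was called. Hoxb9 had 10406, 10578, 10338 and 10705 normalized counts in wild-type, 10718, 10135, 10386 and 10012 in Pkd1-/-, and 8739, 8971, 8943 and 8846 in Pkd2-/- libraries. All Pkd2-/- libraries were below the others, at 84.5% of the wild-type mean (log2 difference −0.24, SE 0.04, adjusted p = 4.33e-05). Hoxb7 had 1902, 1975, 1818 and 1602 normalized counts in wild-type, 1897, 1776, 1781 and 1659 in Pkd1-/-, and 1220, 1280, 1372 and 1194 in Pkd2-/- libraries. It was lower in Pkd2-/- cells without overlap, at 69.4% of wild-type (−0.52, SE 0.07, adjusted p = 2.95e-06). Hoxb6 had 1692, 1714, 1693 and 1647 normalized counts in wild-type, 1612, 1701, 1649 and 1779 in Pkd1-/-, and 1517, 1362, 1570 and 1487 in Pkd2-/- libraries, lower in the last without overlap (−0.19, adjusted p = 0.00702). Hoxb8, which is known from blood cell progenitors, had 1579, 1700, 1602 and 1557, then 1744, 1670, 1589 and 1763, then 1346, 1336, 1338 and 1419 normalized counts in the same order of genotypes. Again the Pkd2-/- libraries were below all others (−0.24 from wild-type, adjusted p = 0.000627).

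Hoxb5 was lower in both mutants, with 864, 848, 840 and 870 normalized counts in wild-type, 753, 712, 677 and 823 in Pkd1-/-, and 637, 686, 623 and 661 in Pkd2-/- libraries. Neither mutant overlapped with wild-type (log2 differences −0.21 and −0.39, adjusted p = 0.0187 and 5.51e-05). Hoxb4, a regulator of blood stem cells, had 386, 314, 377 and 394 normalized counts in wild-type, 322, 370, 333 and 421 in Pkd1-/-, and 378, 370, 388 and 386 in Pkd2-/- libraries. The genotypes overlapped, and neither mutant passed the adjusted p (0.878 and 0.682). Hoxb3 had 311, 262, 347 and 271 normalized counts in wild-type, 242, 309, 290 and 337 in Pkd1-/-, and 222, 244, 219 and 270 in Pkd2-/- libraries. The genotypes overlapped, and Hoxb3 passed the adjusted p in Pkd2-/- cells (−0.31, SE 0.11, adjusted p = 0.0332, exact permutation p = 0.0571). Hoxb2, a gene of the hindbrain, had 136, 171, 143 and 122 normalized counts in wild-type, 176, 160, 178 and 167 in Pkd1-/-, and 164, 173, 211 and 163 in Pkd2-/- libraries. It was the HoxB gene that was higher in Pkd2-/- cells by the adjusted p (0.31, SE 0.12, adjusted p = 0.0396), with overlapping libraries and an exact permutation p of 0.0857. Exon bases shared with other genes make up 52.9% for Hoxb3 and 27.3% for Hoxb2.

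In HoxA, on chromosome 6 from 52162417 to 52260880, genes moved in both directions by less than the fold required for a call, with the exception of Hoxa13. Hoxa10, which acts in the uterus and the lumbar region, had 4209, 4140, 3802 and 3671 normalized counts in wild-type, 4027, 3917, 4232 and 3962 in Pkd1-/-, and 2846, 2922, 3057 and 2889 in Pkd2-/- libraries. All Pkd2-/- libraries were below the others, at 74.0% of wild-type (−0.43, SE 0.05, adjusted p = 1.02e-06). Hoxa9, known as a driver of leukemia, had 3140, 3179, 2960 and 2981 normalized counts in wild-type, 3560, 3417, 3930 and 3472 in Pkd1-/-, and 2637, 2538, 2681 and 2704 in Pkd2-/- libraries. The 3 genotypes did not overlap, with Pkd1-/- above (0.23, adjusted p = 0.0017) and Pkd2-/- below wild-type (−0.21, adjusted p = 0.00162). Hoxa7 had 1028, 1011, 893 and 802 normalized counts in wild-type, 1166, 1183, 1257 and 1146 in Pkd1-/-, and 1098, 1055, 1047 and 956 in Pkd2-/- libraries. It was higher in Pkd1-/- cells without overlap (0.35, SE 0.07, adjusted p = 0.00106), while Pkd2-/- and wild-type libraries overlapped (0.16, adjusted p = 0.0893).

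Hoxa11, of the group required for kidney formation, had 260, 195, 180 and 204 normalized counts in wild-type, 184, 228, 223 and 241 in Pkd1-/-, and 297, 293, 317 and 252 in Pkd2-/- libraries. In Pkd2-/- cells it was 1.38-fold higher (log2 difference 0.47, SE 0.12, adjusted p = 0.00306), although wild-type replicate 1 lay above Pkd2-/- replicate 4 and the exact permutation p was 0.0571. Of its exon bases, 35% are shared with other annotated genes. Hoxa11os, named for its place opposite Hoxa11, had 42.5 ± 7.51 normalized counts in wild-type and 54.8 ± 1.26 in Pkd2-/- cells (SD, n = 4; adjusted p = 0.135). Hoxa4 had 50, 64, 43 and 54 normalized counts in wild-type, 60, 50, 53 and 55 in Pkd1-/-, and 85, 81, 75 and 73 in Pkd2-/- libraries. All Pkd2-/- libraries were above the others, 1.49-fold over wild-type (0.58, SE 0.16, adjusted p = 0.0054).

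Hoxa6 had 71, 60, 78 and 57 normalized counts in wild-type, 41, 83, 59 and 62 in Pkd1-/-, and 103, 76, 83 and 122 in Pkd2-/- libraries, with adjusted p = 0.0504 for Pkd2-/- against wild-type and 0.0116 for Pkd2-/- against Pkd1-/-. Its libraries overlapped between all genotypes. The remaining HoxA genes, Hoxa2, Hoxa3 and Hoxa5, which act in the hindbrain, the throat and the lung, had adjusted p-values between 0.43 and 0.94 in both comparisons with wild-type. Hoxa5 had 792, 718, 657 and 632 normalized counts in wild-type, 591, 677, 726 and 696 in Pkd1-/-, and 630, 642, 699 and 688 in Pkd2-/- libraries. Hoxa3 had 183, 155, 142 and 138 normalized counts in wild-type, 148, 167, 168 and 208 in Pkd1-/-, and 152, 174, 152 and 205 in Pkd2-/- libraries. Hoxa2 had 46, 25, 34 and 37 normalized counts in wild-type, 39, 48, 43 and 27 in Pkd1-/-, and 32, 34, 36 and 40 in Pkd2-/- libraries. For these 3 genes the libraries of all genotypes overlapped.

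Genes that act with or on Hox genes were counted in fixed lists. Where counts at an unadjusted p are given for a list, the share of all genes at that threshold was not computed. Of 9 Hox cofactors, 8 were tested, and in each comparison 1 was called higher and 1 lower. That is 25% of those tested, beside 6.24% of all genes in Pkd1-/- cells, 9.62% in Pkd2-/- cells and 11.8% between the mutants. Meis1 had means of 172.8 ± 20.0 (wild-type), 71.5 ± 15.8 (Pkd1-/-) and 0.25 ± 0.5 (Pkd2-/-) normalized counts (SD, n = 4; adjusted p = 0.00114 and 1.18e-13 against wild-type). Meis2 was higher in Pkd1-/- cells (2356.2 ± 151.9 against 1119.8 ± 70.1, adjusted p = 3.02e-10) and Meis3 in Pkd2-/- cells (103.2 ± 2.5 against 31.8 ± 7.46, adjusted p = 3.02e-06), each without overlap. Of 24 Polycomb subunits, 0 were called in Pkd1-/- cells (limma gave 13 higher and 3 lower at an unadjusted p under 0.05). In Pkd2-/- cells 1 was called (4.17%, beside 9.62% of all genes), namely Phf19. It had 71.2 ± 11.0 normalized counts against 12 ± 1.41 in wild-type (SD, n = 4, adjusted p = 5.76e-08). Of 14 Trithorax-group genes and H3K27 demethylases, 0 were called by limma in either mutant, with 3 higher and 1 lower in Pkd1-/- and 9 higher and 2 lower in Pkd2-/- cells at an unadjusted p under 0.05. Median log2 differences from wild-type, beside 0.01 and −0.01 over all genes, were −0.07 and −0.13 for the cofactors, 0.14 and 0.13 for Polycomb, and 0.07 and 0.20 for Trithorax, in Pkd1-/- and Pkd2-/- cells respectively.

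Of 17 genes of the retinoic acid pathway, 13 were tested, of which 2 were called higher and 4 lower in Pkd1-/- and 0 higher and 6 lower in Pkd2-/- cells (2 higher and 9 lower with limma's unadjusted p under 0.05). The called genes were 46.2% of those tested in each mutant, beside 6.24% of all genes in Pkd1-/- and 9.62% in Pkd2-/- cells. Median log2 differences of the 13 genes were 0.01 and −0.71. Aldh1a2, an enzyme that makes retinoic acid, had means of 1991.2 ± 47.7 (wild-type), 137.8 ± 17.9 (Pkd1-/-) and 1350.5 ± 73.3 (Pkd2-/-) normalized counts (SD, n = 4; adjusted p = 1.71e-16 and 1.11e-05, the second below the fold required). Aldh1a1, which has the same role, had 19.0 ± 1.41, 137.2 ± 16.5 and 1.75 ± 1.5 normalized counts, so that it was higher in Pkd1-/- (adjusted p = 7.36e-06) and lower in Pkd2-/- cells (adjusted p = 1.07e-06). Rarb, a receptor that retinoic acid induces, went from 11.5 ± 3.7 to 0.75 ± 0.957 and 1.75 ± 0.957 (adjusted p = 8.63e-05 and 0.000824). Cyp26a1, which breaks retinoic acid down, went from 39.0 ± 7.7 to 6.25 ± 3.59 and 12.8 ± 4.27 (adjusted p = 1.15e-05 and 0.000999). Of 8 upstream regulators, 4 were tested, and Cdx1, Cdx2 and Cdx4, which activate Hox genes in the embryo, held at most 2 counts in any library. In this list 0 were called in Pkd1-/- cells by limma (2 higher and 0 lower at an unadjusted p under 0.05), and Egr2 was called higher in Pkd2-/- cells, with 1050 to 3608 normalized counts against 285 to 629 in wild-type (adjusted p = 1.72e-05). This 1 gene is 25% of the 4 tested, beside 9.62% of all genes.

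Other genes around and inside the clusters were counted in the same way. Of 108 coding genes within 1 Mb, 85 were tested, of which 1 was called higher and 2 lower in Pkd1-/- and 2 higher and 5 lower in Pkd2-/- cells. These make 3.53% and 8.24% of the tested genes, beside 6.24% and 9.62% of all genes. Jazf1, near HoxA, had means of 114.8 ± 17.0 (wild-type), 6.25 ± 2.22 (Pkd1-/-) and 46.5 ± 9.88 (Pkd2-/-) normalized counts (adjusted p = 2.69e-10 and 0.000214). Tbkbp1, near HoxB, had 91.2 ± 15.4, 49.0 ± 4.9 and 1.25 ± 0.957 (adjusted p = 5.48e-11 in Pkd2-/- cells). Nfe2l3, near HoxA, had 104.5 ± 25.8, 33.2 ± 5.12 and 11.2 ± 2.63 (adjusted p = 1.87e-05 and 1.61e-09), and B4galnt2, near HoxB, had 1.5 ± 1.29, 9.5 ± 1.73 and 6.5 ± 3.51 (adjusted p = 0.00118 in Pkd1-/- cells). Of 41 other genes annotated inside the clusters, 17 were tested. In Pkd1-/- cells 1 was called, 5730596B20Rik in HoxA, lower at 11.2 ± 4.57 against 24.0 ± 6.98 with overlapping libraries (adjusted p = 0.0338), and in Pkd2-/- cells 1 was called, Hoxd3os1. That is 5.88% of those tested in each mutant, beside 6.24% and 9.62% of all genes. Between the mutants, the lists held 1 gene called higher and 1 lower for cofactors, 1 and 0 for Polycomb, 0 and 0 for Trithorax (7 higher and 5 lower at limma's unadjusted p under 0.05), 2 and 3 for retinoic acid, 1 and 0 for upstream regulators, 0 and 1 inside the clusters, and 2 and 5 within 1 Mb. In the same order these were 25%, 4.17%, 0%, 38.5%, 25%, 5.88% and 8.24% of the tested genes, beside 11.8% of all genes.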

How the data were processed

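RNA of 12 libraries of mIMCD3 cells was sequenced, 4 of each genotype. Trim Galore was used by the authors for trimming, HISAT2 for alignment to GRCm38, htseq-count for counting on Ensembl genes and DESeq2 for size factors. Each deposited value (a score, not a read count) is a count divided by its library's size factor and rounded by the authors to a whole number. No low values had been removed. The strand setting of the counting is not given in the sources used here, so reads of overlapping genes may have been dropped or shared. No sample column was left unused (0). Between 23188147 and 30338916 reads per library were counted, with 1 read worth 0.8856 to 1.1278 normalized counts, so that values below about 10 rest on few reads.

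The 38 genes and the gene lists were chosen with earlier results of these data known. Genes with a mean of at least 10 in a genotype were given in every library, and the others by range, except that Hoxd4 and Hoxd10 were also given in every library because they were called, a choice made after their values were seen. In each list, at most 3 called genes per comparison with non-overlapping genotypes and the largest differences were named. Where a list held a single called gene it was named regardless, and Evx2, Lnpk, Mtx2, Smug1, Calcoco1 and Hoxa11os were chosen by position. Gene symbols, positions and exon lengths were from GENCODE M21, which held 47223 of the 47642 identifiers. Values were tested as log2(normalized count + 1) with limma 3.58.1 in R 4.3.3 (lmFit, eBayes with trend) in 1 model of all 12 libraries, for 18552 genes with a mean of at least 1, two-sided, with Benjamini-Hochberg adjustment in each comparison. Log2 differences on this scale understate the change of low genes. For single genes, an exact permutation test (two-sided, 4 against 4 libraries) was added. Ratios against 1 to 3 counts treat normalized counts as reads. Python 3.11.15 was used for the tables and figures, and the fit was tested on simulated data. Alternatives changed the pseudocount (0.5 or 5), the minimum mean (none or 10), the fit (a replicate block, only the 2 genotypes compared, a robust fit), the scaling (equal upper quartiles) and the fold required (none), or left out each library in turn, and for levels per kb the longest transcript as length.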

Additional observations from a re-analysis of the deposited data

Results flagged for a closer look

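Of 66 sets of 4 libraries (1 Hox gene in 1 genotype, mean 10 or more), 2 held a library far from the other 3, where chance gives about 1 in 20. These were Hoxd8 in wild-type cells, with 341 normalized counts in replicate 2 against 376 to 382 in the others, and Hoxb8 in Pkd2-/- cells, with 1419 in replicate 4 against 1336 to 1346.

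The effect of the mutation differed between the mutants for 8 Hox genes, by limma's test of Pkd2-/- against Pkd1-/- cells. All 4 Pkd2-/- libraries were below all 4 Pkd1-/- libraries for each of them. The fitted log2 difference was −1.33 for Hoxc4 (adjusted p = 5.52e-07), −1.90 for Hoxc6 (0.0014), −3.86 for Hoxc9 (3.31e-08) and −2.18 for Hoxc10 (0.00237). In HoxD it was −2.31 for Hoxd4 (0.00091), −5.24 for Hoxd8 (1.36e-16), −6.91 for Hoxd9 (8.13e-14) and −3.01 for Hoxd10 (8.19e-05). For genes with 0 to 3 counts in all Pkd2-/- libraries, the fitted value depends on the pseudocount. Each mutant is 1 clone, so that genotype and clone cannot be told apart.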

How the results depend on the processing

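With a minimum mean of 10, which leaves fewer Hox genes tested, 2 Hox genes were called in Pkd1-/- and 5 in Pkd2-/- cells against wild-type, and 4 between the mutants. Of all genes tested under that setting, 5.39%, 8.77% and 10.6% were called. With no fold change threshold the numbers of Hox genes were 8, 22 and 21 (28.6%, 78.6% and 75.0%), beside 27.1%, 42.3% and 46.3% of all genes. With a pseudocount of 5, 5 genes were called between the mutants, because Hoxc6, Hoxc10 and Hoxd4 fell to log2 differences of −0.85, −0.89 and −0.96, and 9 in Pkd2-/- cells against wild-type, where Hoxd4 (−0.86) and Hoxd10 (−0.54) were lost. Of all genes, 8.46% were called between the mutants and 6.87% in Pkd2-/- cells with that pseudocount. With a pseudocount of 0.5 or 5, 3 Hox genes were called in Pkd1-/- cells, without Hoxd10, beside 6.09% and 4.63% of all genes. With each library left out in turn, 3 to 4, 10 to 11 and 8 to 9 Hox genes were called, and the calls lost were those of Hoxd10. Of all genes, 5.9% to 6.26%, 9.15% to 9.66% and 11.1% to 11.8% were called. Over 51 differences past the adjusted p and 1059 values under alternatives, 1017 kept their direction and side of the threshold, 14 lost the call, 28 gained it (without the fold change threshold) and 0 changed direction. The gene with the highest level per kb was the same in 12 of 12 pairs of cluster and genotype with the longest transcript as length, and with exon bases shared with no other gene, an alternative chosen after seeing the data. Deviations of libraries of different genotypes with the same replicate number had correlations from −0.0726 to 0.2, and 2 of 12 were over 0.1. Both were of replicate 4, at 0.2 for wild-type with Pkd2-/- and 0.167 for Pkd1-/- with Pkd2-/-. Between different numbers the correlations ranged from −0.199 to 0.114. In 9 of 24 cases (each library against each other genotype) a library correlated best with its own number. With the replicate block, 4, 11 and 8 Hox genes were called, as without it, beside 6.31%, 9.65% and 11.8% of all genes. Genes at a few counts, such as Hoxd4, Hoxd10, Hoxc6 and Hoxc10, rest on few reads, so that their values are the least precise.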
